A study of Mus musculus with 8 samples.

Results

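Cxcl1, Cxcl2, Cxcl3, Cxcl5, Ppbp and Cxcr2 were followed in mouse forepaw skin after an intradermal injection of PACAP. They are 6 of the 29608 gene names on the array, each measured by 1 probe on 1 spot, and were taken as the probes that carry these names. They were chosen with the PACAP over vehicle ratios of these same arrays in view, so their ratios and levels are given as a description without a test. PACAP (pituitary adenylate cyclase-activating polypeptide) acts as a neuropeptide, and PAC1R, encoded by Adcyap1r1, is its selective receptor.

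The wild-type (WT) and the PAC1R knockout (KO) mice, both labelled C57BL/6J, were male, 9 to 10 weeks old and under injected anaesthesia in every group. The PACAP groups received 5 µL of PACAP at 1e-07 mol/L in saline with 0.1% bovine serum albumin in the plantar skin of the forepaw, and the vehicle groups received the same solution without PACAP. Skin was taken 30 or 60 min later, which gave 8 RNA samples: vehicle and PACAP for WT 30 min, KO 30 min, WT 60 min and KO 60 min. For the array work 6 mice of each genotype were given PACAP, and how many received vehicle, which mice entered each RNA, and whether they were pooled was not given in the sources used here.

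Vehicle and PACAP RNA of each comparison were hybridised together on 2 two-colour Agilent arrays with the dyes exchanged. The 2 arrays therefore repeat 1 pair of RNA samples, and the spread between them is technical. The WT arrays shared 1 slide and the KO arrays a different one, so that genotype and slide cannot be told apart. Turned to PACAP over vehicle, the ratios of all probes on the 2 arrays correlated at a Pearson r of -0.46 for WT 30 min, -0.31 for KO 30 min, -0.48 for WT 60 min and -0.54 for KO 60 min. The ratios thus tended to opposite directions once the dyes were exchanged, and for the members the ratio of each array is given beside the mean. Values of other genes are means of both arrays unless the arrays are given. Markers of skin were present, with 12 of 12 epidermal genes well above background, and so were 13 of 13 skeletal muscle genes. Adcyap1r1 lay at a log2 level of 8.27 to 8.76 in WT and 7.91 to 8.56 in KO and was well above background in all 8 RNA samples. Whether its probe lies in the deleted part was not given in the sources used here, so it does not check the genotype.

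CXCL1, CXCL2, CXCL3, CXCL5 and PPBP (the precursor of CXCL7) are secreted chemokines with a Glu-Leu-Arg motif before the first cysteines. They bind CXCR2, a G protein-coupled receptor carried mainly by neutrophils, and draw these cells from the blood into inflamed tissue. CXCL1 and CXCL2 are made within minutes to hours by resident and recruited cells under NF-kappa-B, CXCL5 is known from epithelial cells, and PPBP is stored in the granules of platelets.

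The 5 ligand genes lie in a single cluster of 146.641 kb on chromosome 5 of GRCm38.p6, in the order Cxcl5, Ppbp, Cxcl3, Cxcl1, Cxcl2, and Cxcr2 lies on chromosome 1. The probes, on mm9 as the array files give it, were at chr5:91321845-91321904 for Cxcl1, chr5:91334534-91334593 for Cxcl2, chr5:91216694-91216753 for Cxcl3, chr5:91190490-91190549 for Cxcl5, chr5:91198970-91199029 for Ppbp and chr1:74206886-74206945 for Cxcr2. No pair of the 6 probes, each 60 bases long, shared a run of more than 7 bases, and the most alike pair matched at 27 positions without gaps.

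The 120 bases before the start of 4 ligand genes are printed to set Cxcl1 and Cxcl2, which were higher than vehicle at 30 min with PACAP in both genotypes, beside Cxcl3, which was near background, and Ppbp, which had another pattern. The sequences are from RefSeq on GRCm38.p6, plus strand, 5′ to 3′, at chr5:90891125-90891244 for Cxcl1, chr5:90903779-90903898 for Cxcl2, chr5:90785981-90786100 for Cxcl3 and chr5:90768398-90768517 for Ppbp. Capitals mark matches to the kappa-B-type letters GGGANNTTC, on either strand, and to the TATA box letters TATAAA. The RefSeq table held 5 of the 6 members, without Cxcl5.
Cxcl1: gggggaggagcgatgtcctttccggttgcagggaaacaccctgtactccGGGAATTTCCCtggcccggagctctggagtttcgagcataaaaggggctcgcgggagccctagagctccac
Cxcl2: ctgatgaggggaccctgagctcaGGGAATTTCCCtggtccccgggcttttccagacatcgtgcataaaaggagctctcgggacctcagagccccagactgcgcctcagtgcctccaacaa
Cxcl3: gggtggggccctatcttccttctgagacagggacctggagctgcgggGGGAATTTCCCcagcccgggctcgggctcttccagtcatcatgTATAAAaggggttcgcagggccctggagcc
Ppbp: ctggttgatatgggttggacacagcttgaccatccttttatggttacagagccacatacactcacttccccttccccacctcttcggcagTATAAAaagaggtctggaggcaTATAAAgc

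Cxcl1, Cxcl2 and Cxcl3 held the same stretch of letters, GGGAATTTCCC, which matched on both strands in 2 overlapping places and began 71, 97 and 73 bases before the start, respectively. Over 250 bases before the start and on both strands, 3.23% of the 32851 promoters in the table held GGGANNTTC. Cxcr2 held it once, 157 bases before its start, and Ppbp did not hold it. TATAAA, present in 12.4% of all promoters, lay 30 bases before the start of Cxcl3 and 30 and 8 bases before that of Ppbp. The half-site of a cAMP response element, TGACG (17.8% of promoters), lay 215 and 194 bases before the start of Cxcl1, and the AP-1 letters TGANTCA (6.75%) lay 204 bases before that of Ppbp. The full element TGACGTCA, which contains the half-site and was held by 1.55% of promoters, was in none of the 5. These are matches of letters and no binding was measured.

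**Figure D1:**
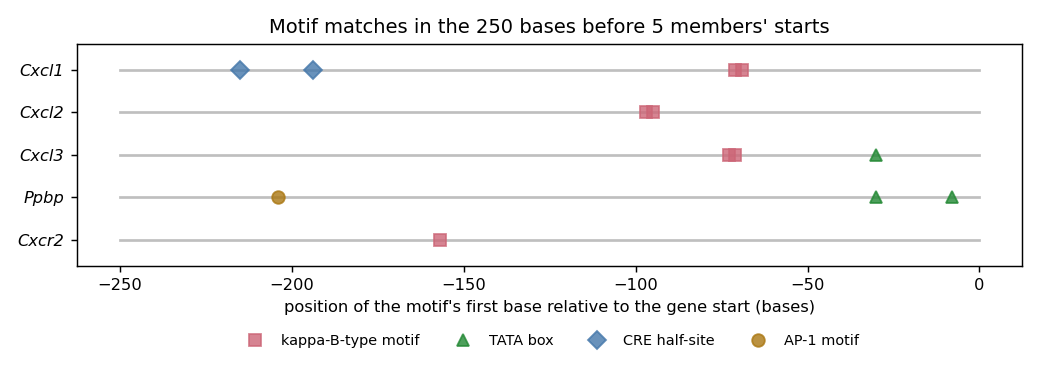
Position, in bases before the gene start, of each motif match in the 250 bases before the starts of the 5 members in the RefSeq table. The kappa-B-type matches of Cxcl1, Cxcl2 and Cxcl3 lie between 69 and 97 bases before the start, and that of Cxcr2 at 157.

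A gene was called up-regulated or down-regulated where the mean ratio of PACAP over vehicle over both arrays was at least 2.0-fold or at most 0.5-fold, in the same direction on both arrays and with the scanner software's p below 0.01 on each. That p comes from the software's error models for the signals of a spot and does not measure the spread between mice. At 30 min, 2 of the 6 members (Cxcl1 and Cxcl2) were called up-regulated in WT, beside 0.254% of all probes. In KO, 3 of 6 (Cxcl2, Cxcl5 and Ppbp) were called up-regulated, beside 0.601% of all probes. None was called down-regulated at 30 min, beside 0.0964% of all probes in WT and 0.107% in KO. At 60 min, 1 member (Ppbp) was called down-regulated in WT, beside 0.109% of all probes, and none up-regulated, beside 0.583%. In KO at 60 min, 1 member (Cxcl5) was called up-regulated, beside 0.142% of all probes, and none down-regulated, beside 0.15%. The members were chosen on these contrasts, and nothing is read from their counts against the background. The median log2 ratio of the 6 members was 0.07 for WT 30 min, 1.01 for KO 30 min, -0.15 for WT 60 min and 0.42 for KO 60 min, and the median of all probes was 0 in each comparison.

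**Figure D2:**
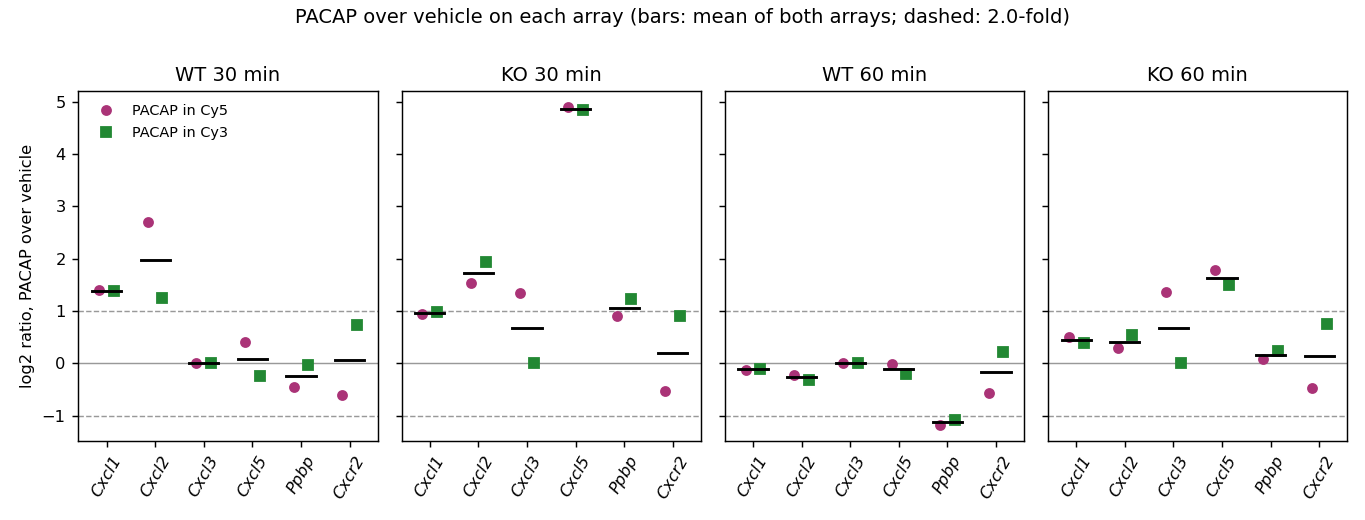
Log2 ratio of PACAP over vehicle for the 6 members in each comparison, with PACAP in Cy5 (circles) or in Cy3 (squares), the mean of both arrays (bars) and the 2.0-fold limits (dashed). Cxcl5 in KO at 30 min lay highest at a mean of 4.87, and the 2 arrays gave opposite directions for Cxcr2 in every comparison.

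Cxcl1, a ligand of CXCR2 that is induced early in inflamed tissue, was higher with PACAP at 30 min in both genotypes. In WT at 30 min its log2 level was 10.24 and 10.26 on the 2 arrays in vehicle and 11.58 and 11.61 in PACAP. In KO at 30 min it was 10.94 and 10.96 in vehicle and 11.84 and 11.91 in PACAP. The vehicle and PACAP values did not overlap in either genotype, and the vehicle of KO lay above the vehicle of WT. The ratio of PACAP over vehicle was 2.62-fold and 2.59-fold in WT (mean 2.61) and 1.92-fold and 1.98-fold in KO (mean 1.95), so that Cxcl1 in KO lay just outside the 2.0-fold limit.

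At 60 min the level of Cxcl1 was high in all 4 RNA samples. In WT it was 12.41 and 12.39 in vehicle and 12.24 on both arrays in PACAP. In KO it was 12.02 and 12.00 in vehicle and 12.48 and 12.42 in PACAP. The mean ratio was 0.92-fold in WT (0.91 and 0.93 on the arrays). For KO it was 1.36-fold (1.41 and 1.30), and the order of vehicle and PACAP was thus opposite in the 2 genotypes. The scanner software's p was not below 0.01 on any of these arrays, so neither ratio departed from 1 by the limit used here. Between times, which were on different arrays, the vehicle level at 60 min was 4.44 times that at 30 min in WT and 2.08 times in KO, while the PACAP level was 1.56 times in WT and 1.49 times in KO. The median log2 difference of probes above background was 0.01 (WT vehicle), -0.01 (KO vehicle), 0.03 (WT PACAP) and -0.01 (KO PACAP). Over the 8 RNA samples the level of Cxcl1 spanned 2.20 on the log2 scale, with WT 30 min vehicle lowest and KO 60 min PACAP highest. The highest, KO 60 min PACAP at 12.45, and the next, WT 60 min vehicle at 12.40, differed by no more than the gap between arrays, and every other step in the order was larger than that gap.

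Cxcl2, a ligand of the same receptor known from macrophages and neutrophils, was dim. In WT at 30 min its log2 level was 6.47 and 6.30 in vehicle and 6.91 and 6.72 in PACAP, and the vehicle RNA was well above background on 1 array only. At 30 min KO had 6.68 and 6.50 in vehicle and 7.40 and 7.42 in PACAP. PACAP was above vehicle on both arrays in both genotypes. The ratio was 6.49-fold and 2.36-fold in WT (mean 3.91) and 2.91-fold and 3.80-fold in KO (mean 3.32). These ratios are of background-subtracted signals, and from the levels, which carry an offset of 50, the same differences were 1.35-fold and 1.76-fold. With normexp and loess in place of the scanner software's ratios, Cxcl2 was called in neither genotype.

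At 60 min Cxcl2 was not called in either genotype. In WT its level was 7.75 and 7.67 in vehicle and 7.60 and 7.48 in PACAP, with ratios of 0.86-fold and 0.80-fold (mean 0.83). In KO it was 7.18 and 6.87 in vehicle and 7.37 and 7.06 in PACAP, with ratios of 1.22-fold and 1.44-fold (mean 1.33). As for Cxcl1, WT vehicle was the highest or next to highest of the 60 min samples and WT 30 min vehicle the lowest of all 8. WT vehicle at 60 min was 2.50 times the level at 30 min, and 13.9 times on the processed signals without the offset, over a vehicle RNA at 30 min that was well above background on 1 array only. In KO vehicle the corresponding values were 1.35 and 2.33 times.

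Cxcl5, the epithelial member of the family, had the widest range of the 6, 4.12 on the log2 scale. In WT at 30 min its level was 7.01 and 7.03 in vehicle and 7.25 and 6.91 in PACAP, and the groups overlapped. In KO at 30 min it was 7.29 and 6.86 in vehicle and 11.21 and 11.07 in PACAP. The ratio was 29.6-fold and 28.7-fold in KO (mean 29.1) and 1.32-fold and 0.85-fold in WT (mean 1.06). From the levels, with the offset of 50, the KO ratio at 30 min was 16.8-fold. The 3 other RNA samples at 30 min did not differ beyond the gap between arrays, and KO PACAP stood alone.

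At 60 min Cxcl5 in WT was 7.85 and 7.90 in vehicle and 7.87 and 7.80 in PACAP, with ratios of 0.99-fold and 0.87-fold (mean 0.93). In KO it was 8.17 and 8.23 in vehicle and 9.72 and 9.57 in PACAP, with ratios of 3.42-fold and 2.81-fold (mean 3.10). Both KO PACAP samples were therefore the highest of the 8, and the one at 60 min was 0.35 times the level of the one at 30 min. Vehicle at 60 min was 1.81 times its level at 30 min in WT and 2.19 times in KO, and on the processed signals without the offset 3.07 and 3.15 times.

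Cxcl3, a close relative of Cxcl1 and Cxcl2, was near background. It was well above background on both arrays in 0 of the 8 RNA samples and on at least 1 array in 5. Its log2 level was 5.78 and 5.85 in WT 30 min vehicle, 5.84 and 5.81 in WT 30 min PACAP, 5.83 and 5.82 in KO 30 min vehicle and 6.24 and 6.06 in KO 30 min PACAP. At 60 min it was 5.83 and 5.94 in WT vehicle, 5.93 and 5.84 in WT PACAP, 5.91 and 5.93 in KO vehicle and 6.15 and 5.90 in KO PACAP. No neighbouring levels in the order differed beyond the gap between arrays. The software set its ratio to 1.00 on both arrays in WT at both times. The KO ratio with PACAP in Cy5 was 2.54-fold at the earlier and 2.55-fold at the later time, with PACAP in Cy3 the software again set it to 1.00, and it was not called. In the deposited table of ratios, where no value was set to 1, the KO mean was 3.15-fold at the earlier and 1.68-fold at the later time, and neither was called. In KO at 30 min, where vehicle was not well above background on either array and PACAP was on 1, the levels put PACAP at least 1.09-fold higher.

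Ppbp, the platelet chemokine, was called in KO at 30 min, as were Cxcl2 and Cxcl5, and in WT at 60 min, where no other member was called. At 30 min its log2 level in WT was 7.12 and 7.05 in vehicle and 7.03 and 6.99 in PACAP, and in KO it was 7.02 and 6.96 in vehicle and 7.65 and 7.66 in PACAP. At 60 min it was 7.71 and 7.64 in WT vehicle and 7.11 and 7.05 in WT PACAP, and in KO 7.19 and 7.01 in vehicle and 7.28 and 7.08 in PACAP. KO 30 min PACAP and WT 60 min vehicle were high, and the 6 other RNA samples lay between 6.99 and 7.18 as means of both arrays. The ratio was 1.86-fold and 2.35-fold in KO at 30 min (mean 2.09), just inside the limit, and 0.44-fold and 0.47-fold in WT at 60 min (mean 0.46). With normexp and loess the values were 1.58-fold and 0.66-fold, and neither was called, and the KO call was also lost with PACAP in Cy5 alone. The WT ratio at 30 min was 0.73-fold and 0.98-fold (mean 0.85), and the KO ratio at 60 min was 1.06-fold and 1.17-fold (mean 1.11). The low ratio in WT at 60 min went with a vehicle level 1.51 times that at 30 min, whereas PACAP was 1.05 times its level at 30 min.

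Cxcr2, the receptor, showed no direction that both dyes shared. Its ratio with PACAP in Cy5 and in Cy3 was 0.66-fold and 1.66-fold in WT 30 min, 0.69-fold and 1.87-fold in KO 30 min, 0.68-fold and 1.16-fold in WT 60 min, and 0.72-fold and 1.68-fold in KO 60 min. The means were 1.04-fold, 1.14-fold, 0.89-fold and 1.10-fold. Its mean log2 level ran from 6.20 in KO 60 min vehicle to 6.54 in WT 30 min vehicle, a span of 0.34, and no neighbouring levels in the order differed beyond the gap between arrays, which reached 0.30.

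**Figure D3:**
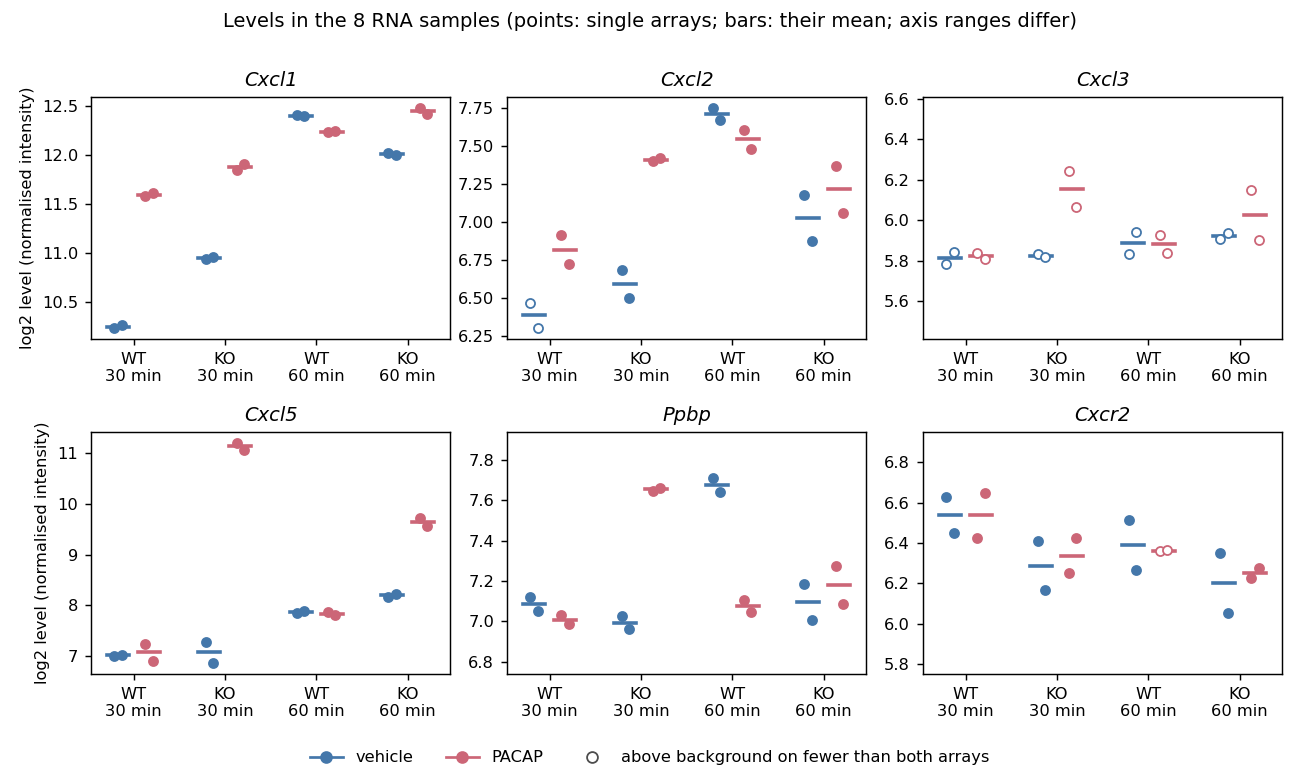
Log2 level (normalised intensity) of each member in vehicle (blue) and PACAP (red) RNA of the 4 comparisons, as single arrays (points) and their mean (bars), with open points where fewer than both arrays were well above background and a separate axis for each gene. Cxcl1 lay between 12.01 and 12.45 in all samples at 60 min, Cxcl5 was highest in both KO PACAP samples, and Ppbp was high in KO 30 min PACAP and WT 60 min vehicle.

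The correlations between members over the 8 RNA samples ranged from -0.51 to 1.00. They describe 8 values that come from 4 pairs of arrays, in which the vehicle and PACAP RNA of a comparison share both arrays. Cxcl1 and Cxcl2 had a Pearson r of 0.89 (0.92 and 0.85 on the single arrays), and Cxcl1 and Cxcl5 had 0.49, or 0.72 without KO 30 min PACAP and 0.81 over the 6 RNA samples without both KO PACAP samples. Cxcl3 and Cxcl5 gave 0.9995. That value is finer than the arrays resolve: no mean of Cxcl3 lay more than 0.0064 from the line on Cxcl5, while its 2 arrays differed by up to 0.25. On the single arrays r was 0.98 and 0.88, and on the processed signals it was 0.93. Since Cxcl3 was near background and its level changed by 0.08 for each unit of Cxcl5, nothing is read from it for Cxcl3. Ppbp and Cxcr2 had an r of -0.08.

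Among genes whose level spanned at least 1.0 on the log2 scale, the 5 most like Cxcl1 were Ccl2 (r of 0.97), Ccl7 (0.97), Ccl3 (0.95), Fosb (0.93) and Atf3 (0.93), that is, 3 CC chemokines that attract monocytes and other leukocytes and 2 immediate-early transcription factors. In WT at 30 min Ccl3 was 3.20-fold, Ccl7 2.48-fold and Ccl2 2.04-fold higher with PACAP, and in WT at 60 min the ratios were 0.64-fold, 0.84-fold and 0.92-fold. For KO the ratios of Ccl3, Ccl7 and Ccl2 were 1.86-fold, 1.68-fold and 1.57-fold at 30 min, and 1.38-fold, 1.31-fold and 1.37-fold at 60 min. The 5 most like Cxcl5 were Ms4a4c (0.97), Sirpb1b (0.97), Lcn2 (0.96), Sirpb1a (0.96) and Ifitm6 (0.94). In KO at 30 min Ms4a4c was 4.42-fold, Sirpb1a 4.23-fold, Sirpb1b 3.78-fold and Lcn2, an iron-sequestering protein of neutrophils and epithelia, 3.03-fold higher with PACAP, and Ifitm6 was 2.52-fold. The 5 genes were 1.04-fold to 1.61-fold in WT at 30 min, 0.67-fold to 1.33-fold in WT at 60 min and 1.27-fold to 1.77-fold in KO at 60 min. Sirpb1a and Sirpb1b are near-identical paralogs, and their probes may share signal. Cxcl2 was most like Mylpf (0.91), Asb11 (0.90), Ccl2 (0.89), Ccl24 (0.87) and Myf6 (0.87), of which Mylpf, Asb11 and Myf6 are muscle genes. Ppbp was most like Zdhhc22 (0.92), Rpl14 (0.90), Yipf6 (0.87) and a pair of unnamed transcripts (0.81 each). Cxcr2 was most like Pdia4, Tfap2a, Hoxc10, Snd1 and Vangl2 (0.95 to 0.96), over a span of 0.34 in its own level, little more than the largest gap of 0.30 between its arrays.

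The cytokines known to induce these ligands, and their receptors and adaptors, were taken as a list of 21 genes. In WT at 30 min 2 of 21 were called up-regulated, Il1b at 2.10-fold and Il6 at 4.47-fold, and the list median was -0.12 on the log2 scale. The same 2 were called in KO at 30 min, Il1b at 4.76-fold and Il6 at 3.80-fold, with a median of 0.21. In WT at 60 min none was called, with Il1b at 0.57-fold and Il6 at 1.12-fold. In KO at 60 min 1 of 21 was called, Csf3, the granulocyte colony-stimulating factor, at 3.24-fold, with Il1b at 1.46-fold and Il6 at 1.77-fold. The Csf3 vehicle was well above background on 1 array only, and its levels, with the offset of 50, gave 1.32-fold. The levels at 30 min gave 2.61-fold (WT) and 2.64-fold (KO) for Il6, and 1.75-fold and 3.67-fold for Il1b. None of the 21 was called down-regulated in any comparison. Il1b, like Cxcl1 and Cxcl2, was thus above vehicle at 30 min in both genotypes and below it in WT at 60 min. None of Il1b, Cxcl1 and Cxcl2 was called in WT at 60 min, and Il6 was 1.12-fold there.

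Of 19 genes of NF-kappa-B feedback and mRNA decay and of 22 genes that carry the signal of CXCR2, none was called in any comparison, with medians between -0.14 and 0.25 and between -0.10 and 0.15. None of the 7 related chemokine genes (Cxcl12, Cxcl15, Cxcl17, Pf4, Cxcr1, Cxcr4 and Ackr1) was called either. Pf4, the other abundant chemokine of platelet granules, was 1.17-fold, 1.16-fold, 0.98-fold and 0.98-fold in WT 30 min, KO 30 min, WT 60 min and KO 60 min. Its log2 level was 14.11 to 14.37, against 6.99 to 7.68 for Ppbp, and which cells gave it was not measured. Cxcr1 and Cxcl15 were well above background on both arrays in none of the 8 RNA samples. Of 16 genes that process or present the ligands, 2 were called up-regulated in KO at 30 min, the collagenase Mmp13 at 14.0-fold and the gelatinase Mmp9 at 3.70-fold, and 1, Mmp13, in KO at 60 min at 2.09-fold. In KO at 30 min their vehicle was well above background on 1 array only, and the levels gave 3.11-fold for Mmp13 and 1.26-fold for Mmp9. The levels of Mmp13 in KO at 60 min gave 1.35-fold.

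Markers of the cells that carry CXCR2 were set beside the ligands. In bulk skin, fewer cells of a type and less RNA per cell cannot be told apart. Of 25 neutrophil genes, 7 were called up-regulated in KO at 30 min: Fpr2 at 7.47-fold, S100a8 at 4.13-fold, S100a9 at 4.01-fold, Mmp9 at 3.70-fold, Lcn2 at 3.03-fold, Retnlg at 2.91-fold and Fpr1 at 2.53-fold. In KO at 60 min 3 were called, S100a8 at 4.56-fold, S100a9 at 3.57-fold and Fpr2 at 2.12-fold, and none in WT at either time. From the levels the dim Fpr2, Mmp9 and Fpr1 were 1.74-fold, 1.26-fold and 1.38-fold in KO at 30 min, with the vehicle of Fpr2 and Mmp9 well above background on 1 array only, and Fpr2 was 1.34-fold in KO at 60 min. The levels of the brighter S100a8 and S100a9 gave 4.04-fold and 3.99-fold at 30 min. S100a8, S100a9 and Lcn2 are made by inflamed keratinocytes as well as by neutrophils. Ly6g, a defining marker of mouse neutrophils, was 1.92-fold in KO at 30 min and 0.93-fold, 0.89-fold and 0.92-fold in WT 30 min, WT 60 min and KO 60 min, and the granule genes Ltf and Ngp were well above background on both arrays in none of the 8 RNA samples. The median log2 ratio of the list was 0.16, 0.41, -0.02 and 0.09 in WT 30 min, KO 30 min, WT 60 min and KO 60 min, and the log2 of its summed level ran from 14.20 to 14.64 in vehicle and from 14.67 to 15.64 in PACAP. S100a8 and S100a9 made up 33.4% to 73.2% of that sum. The part of neutrophils in the high Cxcl5 of KO was not tested.

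Of 15 platelet and megakaryocyte genes none was called in any comparison, with medians of -0.09, 0.16, -0.08 and 0.03, and the log2 of their summed level ran from 14.39 to 14.55 in vehicle and from 14.43 to 14.66 in PACAP. Pf4 made up 80.2% to 85.4% of that sum, which therefore says little of the other genes. Gp1ba, Gp5, Gp6 and Tubb1 were well above background on both arrays in none of the 8 RNA samples. In WT at 60 min, where Ppbp was 0.46-fold, 4 of the 15 were below vehicle on both arrays and 1 was above it on both. Lowest by mean ratio were Gp9 at 0.55-fold (arrays 0.31 and 0.97) and Treml1 at 0.60-fold (0.32 and 1.13). P2ry12 was highest, at 1.36-fold (1.26 and 1.47). The levels of Gp9 and Treml1 were dim and, like that of Ppbp, highest in WT 60 min vehicle, at 6.73 and 6.82. In that comparison 2 of 8 red blood cell genes were called down-regulated, Hbb-b1 at 0.41-fold and Hbb-b2 at 0.46-fold, and the median of that list was -0.86, against 0.42, 0.24 and 0.44 in WT 30 min, KO 30 min and KO 60 min. The log2 of the summed level of the red blood cell genes was 16.63 in WT 60 min vehicle, the sample in which Ppbp was high, 15.71 in its PACAP, and 15.55 to 16.41 in the other 6 RNA samples, and Hba-a1 and Hba-a2 made up 79.3% to 83.4% of it. The part of blood in the ratio of Ppbp was not tested.

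Other tissue markers moved with KO 30 min, the comparison in which Cxcl5 was highest. There 4 of 13 skeletal muscle genes and 2 of 12 epidermal genes (Krt1 and Krt10) were called down-regulated, with list medians of -0.73 and -0.65. Eccrine gland and fibroblast genes, none of them called, had medians of -0.52 and -0.41 there, against -0.06 and 0.29 in WT at 30 min. In WT at 30 min 3 of 13 muscle genes were called up-regulated, with a median of 0.81. Of 14 genes of the epidermal wound response, such as the keratins Krt16 and Krt17 and the antimicrobial peptide Defb4, none was called in WT at 30 min, 6 were called up-regulated in KO at that time, and at 60 min the counts were 6 for WT and 10 for KO. Cxcl5 was called in the 2 KO comparisons of these. The part of these tissue differences in the ratios of the members was not tested.

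**Figure D4:**
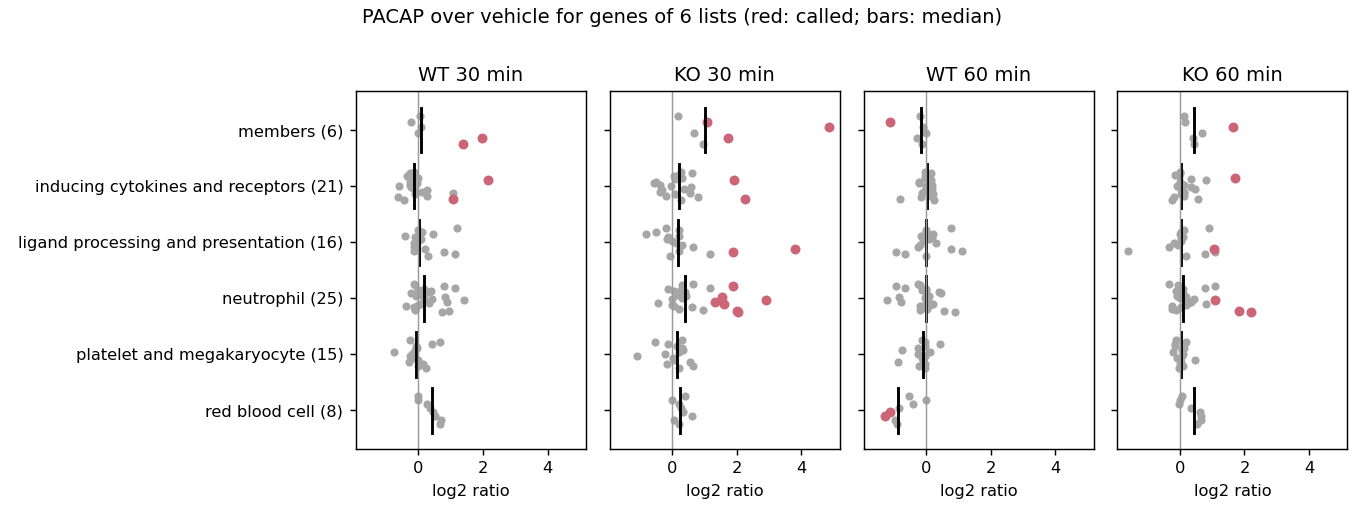
Log2 ratio of PACAP over vehicle for each gene of 6 lists in the 4 comparisons, with called genes in red, the others in grey and the list median as a bar, and the number of genes measured in parentheses. The neutrophil list had 7 called genes in KO at 30 min, and the red blood cell list had a median of -0.86 in WT at 60 min, and grey points beyond 2.0-fold missed the limits on direction or p on 1 or both arrays.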

How the data were processed

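Forepaw skin RNA was measured on 8 two-colour Agilent mouse arrays. The authors deposited scanner tables made with Agilent Feature Extraction (version 12.0.3.1 per the file headers, 11.0.1.1 per the processing notes): background-subtracted, dye-normalised log10 ratios of Cy5 over Cy3, their p-values, and intensities. They also deposited a table of log10 ratios of the same arrays, used as an alternative.

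The deposited log10 ratios were turned to PACAP over vehicle by the labelled dyes, taken to log2, and averaged over both arrays of a comparison. Control spots were left out, as were spots that the software marks as outliers (non-uniform, or apart from their population). Levels were computed from the deposited mean intensities with limma 3.58.1 in R 4.3.3: normexp background correction (offset 50), loess within arrays, Aquantile between arrays, log2. Tables were made with Python 3.11.15. The call rule was run on simulated ratios with large changes and a dye effect weaker than that of these arrays. That run checks the code and says nothing of how reliable the calls are here. Precision is limited by 1 pair of RNA samples per comparison, so no test across samples was made.

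The genes named were the 6 members, Adcyap1r1, the called genes of the pathway lists, list markers where their list is described, and the 5 genes with the level most like each member that was well above background on both arrays in at least 4 of the 8 RNA samples. For a gene with several probes the brightest was used. The lists of macrophage, mast cell, endothelial, fibroblast, eccrine gland and housekeeping genes had no called gene in any comparison. Lcn2, Mmp9 and Ccl2 fall under more than 1 part of that rule. The uncalled values of Ly6g, Pf4, Gp9, Treml1 and P2ry12 are given as markers. Members and lists were chosen with earlier results of these data known. Alternatives were other background and dye corrections, centring, the call limits, single arrays and other scalings of the levels.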

Additional observations from a re-analysis of the deposited data

Results flagged for a closer look

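For 7 differences between the PACAP over vehicle ratios of 2 comparisons, both arrays of one comparison were above vehicle and both arrays of the other below. None of these differences was tested, because each comparison rests on 1 pair of RNA samples. At 30 min the log2 ratio of Ppbp was 1.3066 higher in KO than in WT. At 60 min the log2 ratio in KO minus that in WT was 0.5589 for Cxcl1, 0.6764 for Cxcl2, 1.7427 for Cxcl5 and 1.2793 for Ppbp. In WT the log2 ratio at 60 min minus that at 30 min was -1.5023 for Cxcl1 and -2.237 for Cxcl2. At 60 min the WT ratios of Cxcl1, Cxcl2 and Cxcl5 were within 0.27 of 0 on the log2 scale, so that their opposite direction is of a small size in WT. Ppbp was likewise near 0 in WT at 30 min, at -0.24, and in KO at 60 min, at 0.15. Genotype and slide cannot be told apart in the first 5 of these.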

How the results depend on the processing

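With normexp and loess in place of the scanner software's ratios, 1 member was called up-regulated in WT at 30 min (Cxcl1), 1 in KO at 30 min (Cxcl5) and 0 down-regulated in WT at 60 min. Cxcl2 was then 1.35-fold and 1.76-fold in WT and KO at 30 min, Cxcl5 16.8-fold in KO at 30 min, and Ppbp 1.58-fold in KO at 30 min and 0.66-fold in WT at 60 min. The offset of 50 pulls ratios of dim spots toward 1. On single arrays 2 members were called up-regulated in WT and 2 to 3 in KO at 30 min, Ppbp being lost in KO without the array with PACAP in Cy3, and Cxcl2 in WT was 2.36-fold without the array with PACAP in Cy5 and 6.49-fold without the other. A limit of 1.5-fold added Cxcl1 in KO at 30 min, and a limit on each array removed Ppbp there. Of 96 member ratios recomputed with both arrays 16 moved by more than the spread between arrays, 12 of them with normexp and loess, and no called ratio changed direction. Over the whole array, normexp and loess called 32 up and 25 down in WT 30 min, 154 and 10 in KO 30 min, 160 and 10 in WT 60 min, and 29 and 43 in KO 60 min, against 100 and 38, 237 and 42, 230 and 43, and 56 and 59. Single arrays called 256 to 723 up and 120 to 474 down, a 1.5-fold limit 135 to 608 up and 65 to 461 down, and ratios without the p limit 86 to 272 up and 55 to 167 down. Each member has 1 probe, so averaging probes changes nothing. Within a comparison no paired analysis was possible, because the replicate numbers mark the dye orientation of 1 pair of RNA samples. A fit over the 4 pairs, which differ in genotype and time, was not run.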
